A study of Mus musculus with 6 samples.

Results

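The genes described here carry antigen presentation by major histocompatibility complex (MHC) class I and class II molecules in cells washed from the airspaces of mice. They are 37 of the 48795 gene IDs in the count table, taken by name from a set list of 12 class II genes, 13 class I genes and 12 genes of peptide loading and the immunoproteasome. Names were matched to the IDs through GENCODE M21, and all 37 were found. RNA was sequenced from bronchoalveolar lavage cells of wild-type C57BL/6 mice aged 8 to 12 weeks. Males and females received either cadmium chloride at 100 ng/kg or saline by the intratracheal route, and the lavage was taken on day 7. The 6 libraries (CD178, CD177, CD176, CD174, CD171, CD170) carry no label that says which were exposed, of which sex they were, or whether animals were pooled. The comparison of cadmium with saline was therefore not analysed, and the genes are described library by library. A library name such as CD170 is a title, not a surface marker.

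Class I molecules display peptides cut from proteins of the cell's own cytoplasm to CD8 T cells. The proteasome cuts them, the TAP transporter carries them into the endoplasmic reticulum, and chaperones load them onto a heavy chain paired with beta-2 microglobulin. Class II molecules display peptides from material taken up by the cell to CD4 T cells: the invariant chain holds the groove closed until it is degraded in the endosome, and H2-DM then exchanges its last fragment for a peptide. Alveolar macrophages, phagocytes that live in the airspace, are known for low class II display compared with dendritic cells. Interferon gamma is the classical inducer of both pathways, through the transactivators Ciita for class II and Nlrc5 for class I.

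Transcripts of alveolar macrophages were abundant in every library, at a summed 26948 to 33473 CPM for 10 marker genes, where CPM is counts per 1000000 after scaling of the libraries. Markers of other antigen-presenting and lymphoid cells were sparse. Leaving out Sirpa, which macrophages also express, 9 dendritic cell markers summed to 11.0 to 26.5 CPM, 7 B cell markers to 1.18 to 3.72 CPM, and 8 T and NK cell markers to 1.91 to 8.79 CPM. Siglech and Klrb1c were at 0 in every library. CD174 and CD171 stood apart. CD174 had the fewest gene counts, 7732244 against 12910428 to 23599369 in the other 5, and 25.0% of its counts lay in no annotated feature, against 16.6% in CD171 and 6.49 to 7.29% elsewhere. Its 8 epithelial markers summed to 2984 CPM, against 111 to 488 CPM in the others. For many single genes the log2 range, explained further on, is given with and without these libraries. The part of depth, RNA quality or epithelial RNA in the results that rest on these libraries was not tested. In bulk RNA, fewer cells of a type and less RNA per cell cannot be told apart.

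Class II promoters carry a conserved pair of elements, an X box and, downstream of it, a Y box that binds NF-Y. The following stretches show where the letters of both lie in the class II genes that had a promoter entry and a Y box with its X box in range, with H2-DMb2 as the near copy of H2-DMb1 that lacks the X letters. Each is 60 bases on its gene's strand, from RefSeq on GRCm38.p6, and capitals mark GNAAC, the X box core, and GATTGG, the Y box core.
H2-Aa (chr17:34287867-34287926, minus strand): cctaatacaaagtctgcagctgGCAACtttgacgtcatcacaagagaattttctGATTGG
H2-Eb1 (chr17:34305753-34305812, plus strand): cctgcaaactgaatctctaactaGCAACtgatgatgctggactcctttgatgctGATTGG
H2-Eb2 (chr17:34325520-34325579, plus strand): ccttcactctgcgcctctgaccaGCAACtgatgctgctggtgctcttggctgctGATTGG
H2-DMb1 (chr17:34153075-34153134, plus strand): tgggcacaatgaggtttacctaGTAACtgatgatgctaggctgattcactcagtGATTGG
H2-DMb2 (chr17:34145104-34145163, plus strand): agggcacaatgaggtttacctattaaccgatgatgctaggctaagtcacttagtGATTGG
H2-Oa (chr17:34092281-34092340, plus strand): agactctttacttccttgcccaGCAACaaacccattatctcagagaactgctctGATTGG
H2-Ob (chr17:34238793-34238852, plus strand): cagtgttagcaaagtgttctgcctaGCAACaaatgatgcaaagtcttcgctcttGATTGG

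Of the 37 genes, 30 had a RefSeq promoter entry, and the 250 bases before the start were searched on both strands, each motif apart from any overlap with another. GATTGG was in 20 of the 30 and in 14.6% of all 32851 promoters. GNAAC followed, after a gap of 24 to 30 bases, by GATTGG was in 6, all of them class II genes, and in 0.396% of all promoters. GNAAC alone was in 79.6% of all promoters. The X2 letters TGATG were in 21 of the 30 genes and in 34.5% of all promoters. The alternative letters TGACG were in 14 genes and in 17.8% of all promoters. These matches describe letters only. The 6 genes with the spaced pair were far apart in level, since H2-Aa and H2-Eb1 were abundant while H2-Ob and H2-Eb2 were near the counting limit.

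Class I promoters held the single motifs too: GATTGG was in 8 and TGATG in 8 of the 10 with an entry. The spaced pair of GNAAC and GATTGG was in 0 of them. The 9-base run held by the most class I promoters, in 7 of the 10 with an entry, was GTTTCACTT, which has the letters of an interferon-stimulated response element. It was in H2-K1, H2-D1, H2-M3, H2-Q4, H2-Q6, H2-Q7 and H2-T22, and in 0.338% of all promoters. GGGGATT, with which kappa B sites can begin, was in 6 of those 7, all but H2-M3, in H2-Aa, and in 2.76% of all promoters. The 250 bases before the start are shown for H2-Q6 and H2-Q7, neighbouring near copies whose counts differed between libraries, and for B2m, the shared light chain, with capitals at these motifs and at GATTGG or its complement CCAATC.
H2-Q6 (chr17:35424600-35424849, plus strand): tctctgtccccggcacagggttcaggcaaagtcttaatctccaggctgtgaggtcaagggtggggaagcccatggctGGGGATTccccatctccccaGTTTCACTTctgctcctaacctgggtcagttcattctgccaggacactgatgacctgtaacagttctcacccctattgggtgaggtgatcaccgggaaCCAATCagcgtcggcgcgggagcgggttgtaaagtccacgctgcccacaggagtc
H2-Q7 (chr17:35438905-35439154, plus strand): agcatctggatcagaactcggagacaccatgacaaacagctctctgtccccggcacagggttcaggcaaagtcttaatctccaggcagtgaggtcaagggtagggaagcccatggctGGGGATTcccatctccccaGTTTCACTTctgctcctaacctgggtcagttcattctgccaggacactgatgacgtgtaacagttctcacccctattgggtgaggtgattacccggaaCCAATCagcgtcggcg
B2m (chr2:122147437-122147686, plus strand): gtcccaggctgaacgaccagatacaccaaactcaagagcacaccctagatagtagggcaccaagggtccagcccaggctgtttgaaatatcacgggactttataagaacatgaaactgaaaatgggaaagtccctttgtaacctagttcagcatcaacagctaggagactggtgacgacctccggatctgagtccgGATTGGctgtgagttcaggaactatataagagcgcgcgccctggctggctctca
An alignment of the H2-Q6 and H2-Q7 windows held 205 identical positions, 70.7% of all its positions with gaps counted. The windows are offset against each other, so their unpaired ends lower that share, and it is not the identity of the paired bases. Both windows hold the 3 motifs in the same order. B2m held GATTGG and neither of the other motifs as searched.

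Levels per kilobase of exon spanned more than 4 orders of magnitude. The length used was the union of all annotated exons, which can be longer than the transcript that was expressed. The order of genes and the ratios per length therefore depend in part on the annotation. B2m was highest, at a median of 1807 CPM per kilobase, followed by H2-D1 at 685, Cd74 at 657, Ifi30 at 649 and Calr at 524. H2-Ab1 was at 113, H2-DMa at 106, H2-Eb1 at 74.9 and H2-Aa at 73.8 CPM per kilobase. At the bottom were Ciita at 1.20, H2-Oa at 0.902, Nlrc5 at 0.460, H2-Eb2 at 0.101 and H2-Ob at 0.072 CPM per kilobase. The range over libraries of B2m did not overlap that of its neighbour H2-D1, and gaps also followed Calr, Pdia3, H2-K1, Psme1, H2-Q4, Mr1, H2-T24 and H2-Q7. Every other pair of neighbours in this order overlapped. By this measure the highest medians were those of the light chain, a classical heavy chain, the invariant chain and a lysosomal reductase. Both transactivators were among the lowest 5. By medians in CPM, Calr at 1510, Pdia3 at 1011, Canx at 841 and H2-K1 at 736 lay above Ifi30 at 636.

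**Figure D1:**
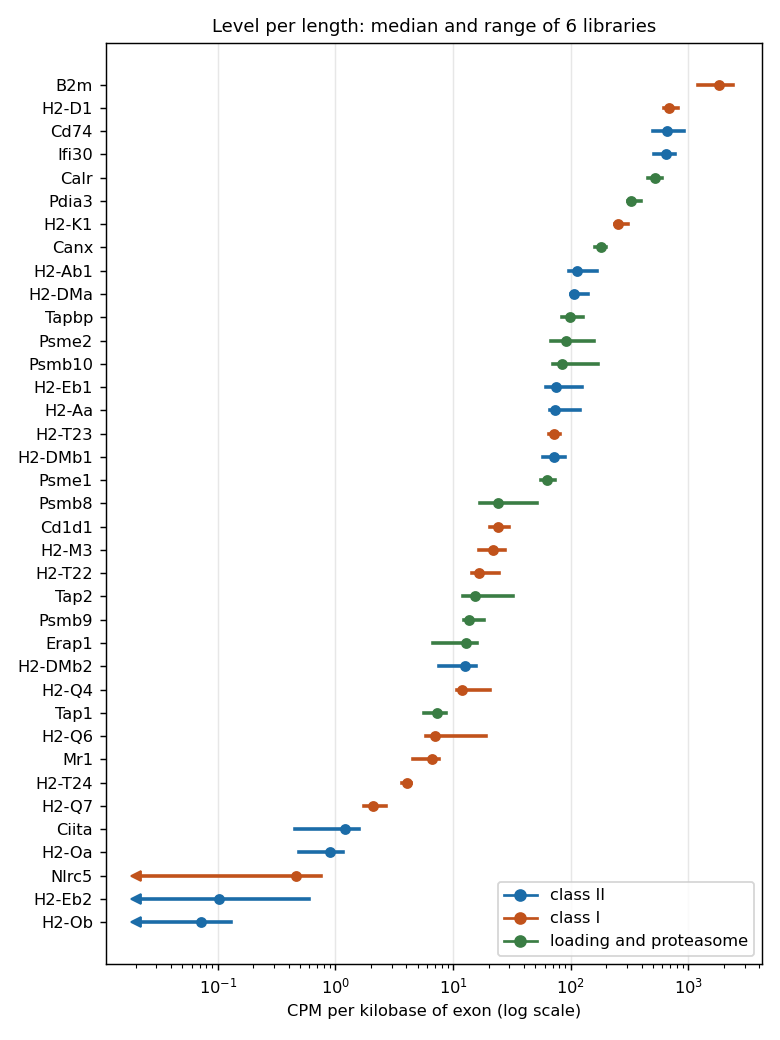
Level of each of the 37 genes on a log axis in CPM per kilobase of exon, with a point at the median and a line over the range of the 6 libraries, coloured by class II, class I, and loading and proteasome. B2m lies highest at 1807, and the arrows of Nlrc5, H2-Eb2 and H2-Ob mark genes with at least 1 library at 0.

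All but H2-Eb2 passed the count filter, which asked for at least 10 counts in at least 3 libraries. Spread was described as the log2 range, the highest minus the lowest log2 CPM of the 6 libraries, and a range of 1 is a 2-fold difference. A range of at least 1 was seen in 12 of the 36 genes that passed, 33.3%, against 50.5% of all 12627 genes that passed. Among the 1924 genes with a median of at least 100 CPM the share was 12.3%. The 12 were 5 of 11 class II genes (Ciita, H2-Eb1, H2-DMb2, H2-Oa, H2-Ob), 2 of 13 class I genes (Nlrc5, H2-Q6) and 5 of 12 loading and proteasome genes (Tap2, Psmb8, Psmb10, Psme2, Erap1). Without CD171 and CD174, under the same scaling, the range reached 1 in 1 gene, H2-Oa, against 19.1% of all genes and 1.25% of the abundant ones. Rescaled without CD174 alone, 2 genes had such a range, both of class II. The class II count was 3 of 10 without CD170 and 2 of 10 without CD178, where H2-Ob no longer passed the filter. The median log2 range was 0.86 for class II, 0.73 for class I and 0.61 for loading and proteasome genes, against 1.01 over all genes and 0.58 over abundant genes. Over the 4 libraries without CD171 and CD174 these medians were 0.80, 0.28 and 0.35, against 0.46 and 0.30. The class II median thus changed little when those libraries were left out, and that of the other groups came down to the level of abundant genes.

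**Figure D2:**
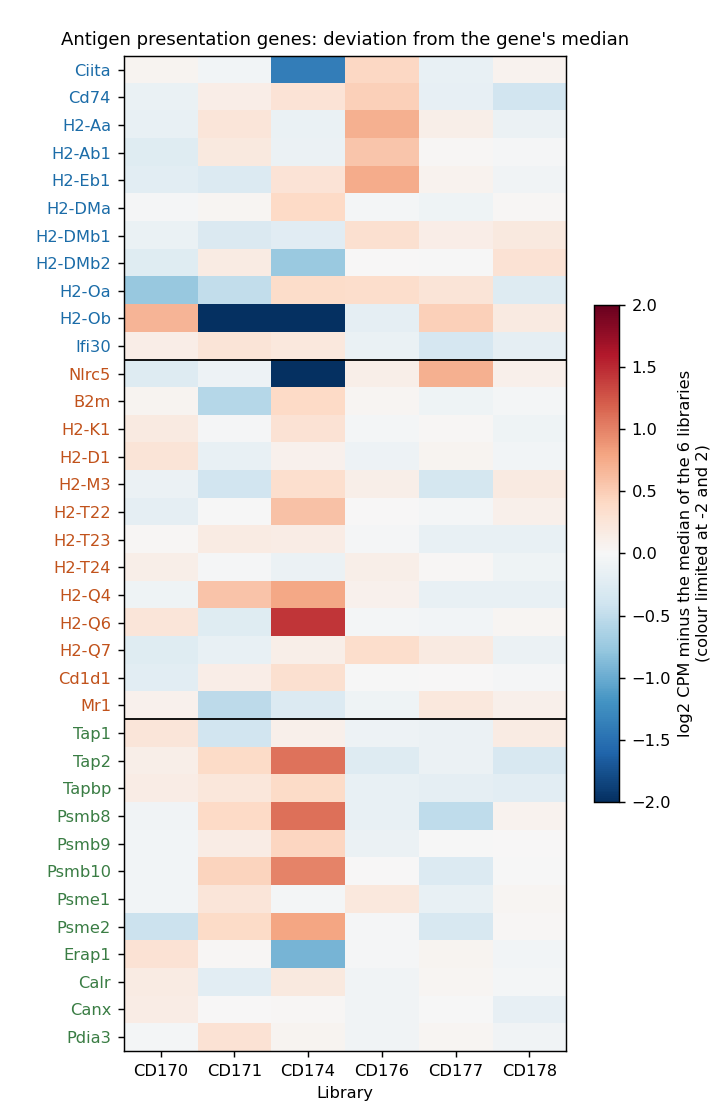
Log2 CPM of 36 genes in each library minus the gene's median over the 6 libraries, with class II names in blue, class I in orange, loading and proteasome in green, and colour limited at -2 and 2. CD176 is high for the class II chain genes, and CD174 is high for Psmb8, Psmb10, Tap2 and H2-Q6 and low for Ciita, H2-Ob, Nlrc5 and Erap1.

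The class II α and β chain genes lie together on chromosome 17, and the 3 abundant ones were highest in CD176. H2-Aa, the α chain of I-A (chr17:34282744-34287823, GRCm38), was measured at 457 CPM in CD176, 330.4 in CD171, 304 in CD177, 257 in CD178, 255 in CD174 and 251 in CD170. H2-Ab1, its β chain (chr17:34257689-34269419), was measured at 427 CPM in CD176, 333 in CD171, 295 in CD177, 287 in CD178, 267 in CD174 and 246 in CD170. H2-Eb1, the β chain of I-E (chr17:34305867-34316674), was measured at 243 CPM in CD176, 175.6 in CD174, 153 in CD177, 139 in CD178, 125 in CD170 and 121 in CD171. CD176 was highest for all 3, by 1.28-fold to 1.38-fold over the next library. The 6 libraries had the same order for H2-Aa and H2-Ab1 and another for H2-Eb1. The log2 range was 0.86 for H2-Aa, 0.80 for H2-Ab1 and 1.01 for H2-Eb1. Without CD171 and CD174 these ranges were 0.86, 0.80 and 0.96. C57BL/6 mice lack a working I-E α chain, so the H2-Eb1 product has no partner in this strain. H2-Ea-ps, that α gene, had a level of 0.261 CPM in CD176 and 0 in the other 5.

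Cd74, the invariant chain, was also highest in CD176. Its level was 1531 CPM in CD176, 1330.2 in CD174, 1201 in CD171, 1006 in CD170, 976 in CD177 and 843 in CD178. CD176 and CD174 were highest and CD178 lowest, a 1.82-fold spread that was the same without CD171 and CD174, since CD176 and CD178 set it. Per length, Cd74 exceeded H2-Ab1 by a factor of 4.49 in CD178 to 7.62 in CD174, and H2-Aa was 0.605 to 0.722 times H2-Ab1. The 2 chains of I-A therefore kept a narrow ratio while the invariant chain varied against them.

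Ciita, the class II transactivator, was read from few counts. It was measured at 15.2 CPM in CD176, 12.0 in CD178, 11.8 in CD170, 11.0 in CD171, 10.3 in CD177 and 4.32 in CD174. CD176 was highest, with an exact 95% Poisson interval of 13.3 to 17.3 CPM, and CD174 lowest, at 2.89 to 6.20 CPM from 29 counts. The CD176 interval overlapped that of CD178, 10.7 to 13.5 CPM, and that of CD170, 10.3 to 13.5 CPM. Those intervals, like all given here, cover counting error only. No molecular identifiers mark out independent molecules, so even counting error may be larger than they show. The log2 range of Ciita was 1.79, and 0.55 without CD171 and CD174. Thus CD176 headed Ciita, Cd74, H2-Aa, H2-Ab1, H2-Eb1 and H2-DMb1, 6 of the 11 class II genes, where 11.5% of all genes and 5.98% of abundant genes were highest in CD176. It was also highest for 1 of 13 class I genes and for 0 of 12 loading and proteasome genes. The 6 genes were highest in CD176 under each of 4 scalings. Dendritic cell markers without Sirpa summed to 19.1 CPM in CD176, within the range of the others, and B cell markers to 1.18 CPM, the lowest of the 6. The 8 epithelial markers summed to 388 CPM in CD176, against 2984 CPM in CD174, 488 CPM in CD178 and 111 to 206 CPM in the other 3. Of them, Cldn18 and Foxj1 were highest in CD176, at 23.8 and 4.57 CPM, and the part of epithelial RNA in the class II levels was not tested.

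The peptide exchange genes did not share that order. H2-DMa, the α chain of the exchange factor H2-DM, was measured at 481 CPM in CD174, 378 in CD171, 373 in CD178, 360.3 in CD170, 355 in CD176 and 347 in CD177. CD174 stood above the other 5, and the log2 range of 0.47 became 0.11 without CD171 and CD174. H2-DMb1, a β chain of the same factor, was measured at 150.3 CPM in CD176, 139 in CD178, 132 in CD177, 110.1 in CD170, 103 in CD174 and 98.2 in CD171. Its order was different, with CD176 highest and CD171 lowest. H2-DMb2, the other β chain, lay at 13.3 to 27.2 CPM with CD174 lowest, a log2 range of 1.03 and of 0.54 without CD171 and CD174. Per length H2-DMb1 exceeded it by 4.09-fold to 8.09-fold. Of 50-base windows in the exons of H2-DMb1, 22.7% also occur in another gene, all of them in H2-DMb2, so the split between the pair is uncertain; their summed counts had a log2 range of 0.57.

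H2-Oa and H2-Ob encode H2-DO, which inhibits H2-DM and is best known from B cells. H2-Oa lay at 0.690 to 1.64 CPM from 11 to 31 counts, and its highest and lowest counting intervals overlapped. H2-Ob had 13 counts in CD170, 12 in CD177, 11 in CD178, 5 in CD176 and 0 in CD171 and CD174. Its exact 95% Poisson interval was 0.367 to 1.18 CPM in CD170, which overlapped that of 0 to 0.549 CPM in CD174 and lay above that of 0 to 0.285 CPM in CD171. H2-Eb2, a further β chain gene, had 26 counts in CD171, 6 to 9 in 4 libraries and 0 in CD174. Against a floor of 3 counts in CD174, the measured level in CD171 was 4.49-fold higher. The exact 95% Poisson interval of H2-Eb2 was 1.31 to 2.94 CPM in CD171 and 0 to 0.549 CPM in CD174. H2-DMa exceeded H2-Oa per length by 88.7-fold in CD176 to 213-fold in CD170. Ifi30, a lysosomal reductase that opens disulphide bonds of antigens, had 759.6 CPM in CD171, 731 in CD174, 697 in CD170, 576 in CD176, 558 in CD178 and 500.5 in CD177. CD171 and CD174 were highest for it and CD177 lowest, over a log2 range of 0.60, and 0.48 without CD171 and CD174.

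**Figure D3:**
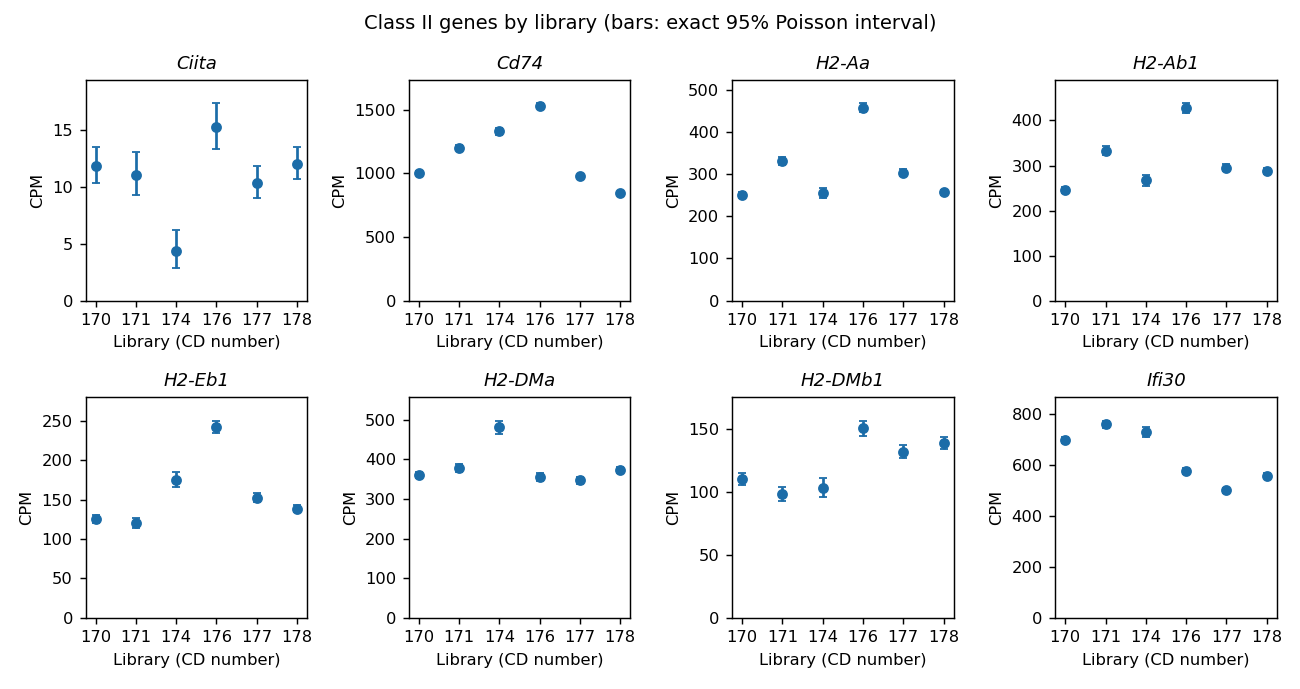
CPM of 8 class II genes in each of the 6 libraries, with exact 95% Poisson intervals as bars and each axis starting at 0. H2-Aa, H2-Ab1 and H2-Eb1 peak in CD176, H2-DMa peaks in CD174, and Ciita is lowest in CD174 at 4.32 CPM.

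The light chain and the classical heavy chains made up most of the class I counts. B2m, beta-2 microglobulin and the light chain of every class I molecule (chr2:122147686-122153083), was measured at 2043 CPM in CD174, 1621 in CD170, 1589.5 in CD176, 1518 in CD178, 1464 in CD177 and 1047 in CD171. CD174 was highest and CD171 lowest, over a log2 range of 0.96, and the remaining 4 lay between 1464 and 1621 CPM, a range of 0.15. H2-D1, a classical heavy chain (chr17:35262730-35267499), was measured at 2099 CPM in CD170, 1868 in CD174, 1823 in CD177, 1708 in CD178, 1646 in CD176 and 1585 in CD171. H2-K1, the other classical heavy chain (chr17:33996017-34000347), was measured at 897 CPM in CD174, 835 in CD170, 750.3 in CD177, 721 in CD171, 713 in CD176 and 694 in CD178. Their log2 ranges were 0.41 and 0.37, and 0.35 and 0.27 without CD171 and CD174. CD170 was highest for H2-D1 and CD174 for H2-K1, so no library headed both. Per length, H2-K1 was 0.349 to 0.421 times H2-D1, and B2m exceeded H2-D1 by 1.98-fold to 3.28-fold, in each case highest in CD174. The summed heavy chains came to 2306 CPM in CD171 and up to 2935 CPM in CD170.

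Nlrc5, the class I transactivator, was low in every library. It was measured at 6.44 CPM in CD177, 4.25 in CD176, 4.19 in CD178, 3.63 in CD171, 3.24 in CD170 and 0 in CD174. CD174 had 0 counts, where the others had 47 to 132, and the measured level in CD177 was 14.4-fold above a floor of 3 counts. The exact 95% Poisson interval was 5.39 to 7.64 CPM in CD177 and 0 to 0.549 CPM in CD174. Without CD171 and CD174 its log2 range was 0.97. CD174 thus combined the highest B2m and H2-K1 with no Nlrc5 count. The gene holds 8493 bases of exon.

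The nonclassical class I genes encode heavy chains with narrower roles. Among them, H2-T23, which makes the Qa-1 ligand of NK receptors (chr17:36029773-36032855), was the most abundant at 189 to 233 CPM. H2-M3, which presents formylated peptides, lay at 23.8 to 39.5 CPM, and H2-T24 at 8.04 to 9.55 CPM, the smallest log2 range of the 36 genes at 0.24, and 0.21 without CD171 and CD174. Cd1d1, which presents lipids to NKT cells, lay at 53.1 to 77.3 CPM and Mr1, which presents vitamin B metabolites to MAIT cells, at 27.2 to 45.8 CPM. CD174 was highest for H2-M3 and Cd1d1, CD171 for H2-T23, CD170 for H2-T24 and CD177 for Mr1.

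H2-Q6, H2-Q7, H2-Q4 and H2-T22 share exon sequence with neighbouring genes. H2-Q6 (chr17:35424850-35430055) was measured at 39.3 CPM in CD174, 17.2 in CD170, 15.0 in CD178, 14.2 in CD176, 14.0 in CD177 and 12.3 in CD171. CD174 stood far above the other 5, with a log2 range of 1.67 that became 0.30 without CD171 and CD174. H2-Q7 (chr17:35439155-35443773), which makes a Qa-2 heavy chain, was measured at 11.4 CPM in CD176, 10.1 in CD177, 9.68 in CD174, 8.13 in CD178, 8.03 in CD171 and 7.48 in CD170. It was highest in CD176 and not in CD174, over a log2 range of 0.60 with and without CD171 and CD174. The ratio of H2-Q6 to H2-Q7 per length ran from 2.55 in CD176 to 8.31 in CD174. Of 50-base windows in their exons, 35.0% in H2-Q6 and 26.5% in H2-Q7 also occur in another gene, so their separate values are uncertain. Summed, the pair had a log2 range of 1.27. H2-Q4 was measured at 53.5 CPM in CD174, 46.2 in CD171, 33.1 in CD176, 29.2 in CD170, 28.0 in CD177 and 27.9 in CD178, and H2-T22 at 84.6 CPM in CD174, 60.6 in CD178, 56.6 in CD176, 56.3 in CD171, 55.2 in CD177 and 49.8 in CD170. Both were highest in CD174, with log2 ranges of 0.94 and 0.76, and of 0.24 and 0.28 without CD171 and CD174. They share 36.4% and 53.5% of their windows with other genes, and H2-T22 summed with its near copy H2-T10 had a log2 range of 0.82.

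Log2 ranges of the loading and proteasome genes ran from 0.32 for Canx to 1.60 for Psmb8. Calr, Canx and Pdia3, the chaperones calreticulin, calnexin and ERp57, lay at 1305 to 1720.0, 751 to 937 and 962 to 1231 CPM. Their log2 ranges were 0.40, 0.32 and 0.36, and 0.22, 0.32 and 0.12 without CD171 and CD174, with CD171 highest for Pdia3. Tapbp, tapasin, which bridges class I to the transporter, lay at 307 to 464 CPM with CD174 highest and a log2 range of 0.60, and 0.36 without CD171 and CD174. Other annotated genes overlap 29.0% of its exons, so its level is uncertain. Together the transport and loading genes had a 1.19-fold spread, and 1.15-fold without CD171 and CD174.

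The immunoproteasome subunits were highest in CD174. Psmb8, the inducible chymotrypsin-like subunit LMP7 (chr17:34197721-34201454), was measured at 175 CPM in CD174, 107 in CD171, 85.3 in CD178, 78.1 in CD170, 73.8 in CD176 and 57.6 in CD177. Psmb10, the inducible subunit MECL-1 (chr8:105935735-105938444), was measured at 288 CPM in CD174, 195 in CD171, 144 in CD176, 144 in CD178, 139 in CD170 and 119.6 in CD177. Psmb9, the inducible subunit LMP2 (chr17:34181987-34187764), lay at 45.5 to 66.9 CPM. CD174 and CD171 were the highest libraries for all 3, by a wide margin for Psmb8 and Psmb10 and a narrow one for Psmb9. Their log2 ranges were 1.60, 1.27 and 0.55, and 0.57, 0.27 and 0.13 without CD171 and CD174. Psme2, the β part of the PA28 activator, was measured at 280.4 CPM in CD174, 210.4 in CD171, 164 in CD178, 159.7 in CD176, 129 in CD177 and 119.7 in CD170 and had the same leading libraries, whereas Psme1, its α part, lay at 125 to 164 CPM with CD171 highest. The log2 range of Psme2 was 1.23, and 0.46 without CD171 and CD174. The ratio of Psme1 to Psme2 per length was 0.386 in CD174, 0.621 in CD171 and 0.690 to 0.888 elsewhere. Windows shared with Psme2b made up 28.3% of Psme2, so its level is uncertain.

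Constitutive counterparts were set beside the inducible subunits. Psmb5, which Psmb8 replaces, was measured at 126 CPM in CD174, 99.2 in CD171, 60.9 in CD176, 58.9 in CD170, 55.0 in CD177 and 54.4 in CD178, and Psmb6, which Psmb9 replaces, at 274 CPM in CD174, 138 in CD171, 132 in CD178, 121 in CD176, 109.6 in CD177 and 94.0 in CD170. Both were themselves highest in CD174, with log2 ranges of 1.21 and 1.54, and of 0.16 and 0.49 without CD171 and CD174. Psmb7, which Psmb10 replaces, lay at 55.7 to 72.7 CPM, and was highest in CD178. Per length, Psmb8 to Psmb5 was 0.370 in CD174, within the 0.278 to 0.417 of the other 5. Before division by length, the median was 81.7 CPM for Psmb8 and 59.9 CPM for Psmb5. The size of that ratio thus rests on annotated exon lengths of 3381 and 899 bases. The ratio Psmb9 to Psmb6 was lowest in CD174 at 0.125, against 0.193 to 0.260 elsewhere. The ratio Psmb10 to Psmb7 was highest in CD174 at 10.1 and next in CD171 at 6.84, against 3.98 to 5.01 in the remaining 4. The 3 transcript ratios of inducible to constitutive subunits therefore did not share a direction in CD174. Assembly of the subunits into proteasomes was not measured.

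**Figure D4:**
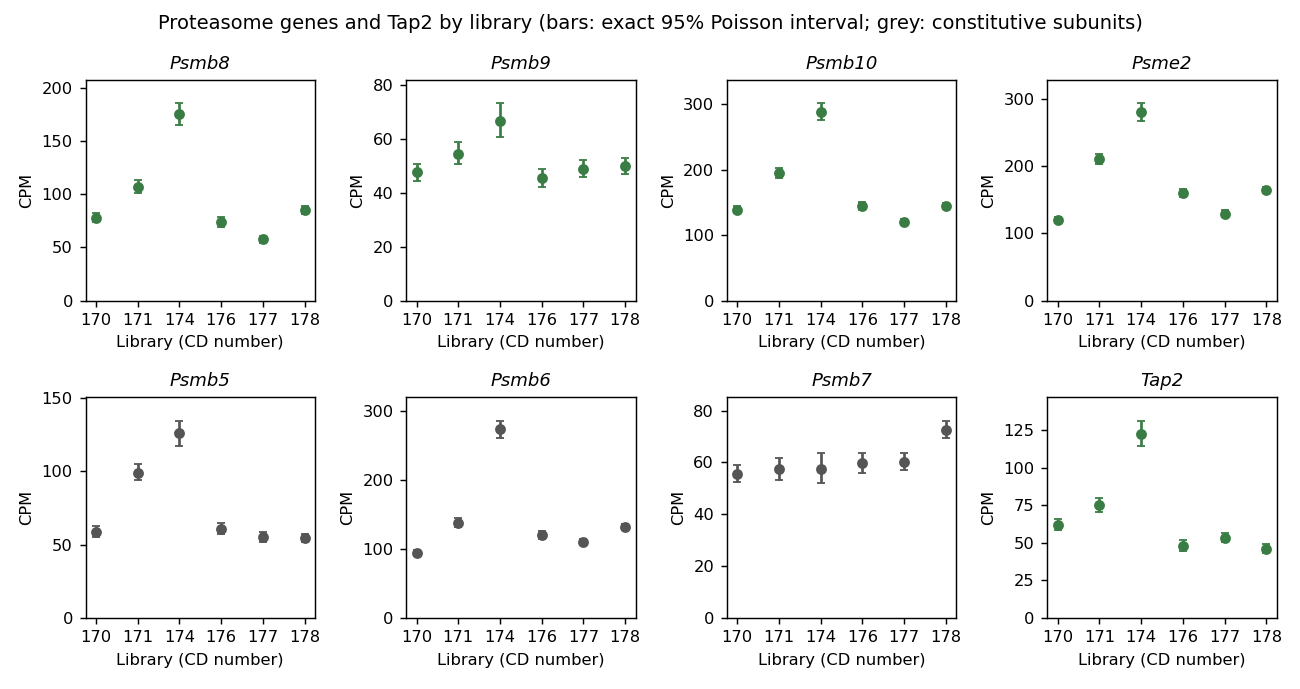
CPM of 3 inducible proteasome subunits, Psme2, 3 constitutive subunits in grey and Tap2 in each library, with exact 95% Poisson intervals and axes from 0. Psmb8, Psmb10, Psme2, Tap2, Psmb5 and Psmb6 are all highest in CD174, while Psmb7 is highest in CD178.

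The transporter subunits and the trimming enzyme went different ways. Tap2 (chr17:34203527-34216321) was measured at 123 CPM in CD174, 75.0 in CD171, 62.1 in CD170, 53.3 in CD177, 48.0 in CD176 and 46.1 in CD178, while Tap1 (chr17:34187553-34197225) lay at 30.7 to 47.6 CPM. CD174 was highest for Tap2 with a log2 range of 1.41, and CD170 was highest for Tap1 with a range of 0.63. Without CD171 and CD174 these ranges were 0.43 and 0.36. The ratio of Tap1 to Tap2 per length was 0.243 in CD174 and 0.283 in CD171, against 0.482 to 0.673 in the remaining 4. Erap1, the aminopeptidase that trims peptides in the endoplasmic reticulum (chr13:74639568-74693201), was measured at 115 CPM in CD170, 98.1 in CD177, 95.5 in CD171, 92.6 in CD176, 90.9 in CD178 and 49.3 in CD174. CD174 was lowest for it and the other 5 lay close together, with a log2 range of 1.22 that became 0.34 without CD171 and CD174. Tap2 and Psmb8 lie side by side and overlap other annotated genes over 18.5% and 14.7% of their exons, and Erap1 overlaps Cast over 11.5%. The larger overlaps, beside that of Tapbp, were 29.4% for H2-T22, 22.8% for H2-Oa and 19.1% for H2-Q4. The strand setting of the counting is not given in the sources used here, so the levels of overlapping genes are uncertain. Counts set aside as ambiguous between genes were 9.99% in CD174, against 5.48 to 6.78% in the other 5. Alignments that were not unique took 11.0% in CD174, against 6.80 to 8.55% in the other 5. The part of these reads in the gene levels was not tested.

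Summed by role, class II genes came to 3779 CPM (exact 95% Poisson interval 3748 to 3810) in CD176 and 2635 CPM (2615 to 2656) in CD178, the lowest. Class I genes came to 5382 CPM (5327 to 5438) in CD174 and 3839 CPM (3805 to 3873) in CD171, the lowest. Loading and proteasome genes came to 5254 CPM (5199 to 5309) in CD174 and 4251 CPM (4225 to 4277) in CD178, the lowest. The sums thus spread 1.43-fold, 1.40-fold and 1.24-fold, and 1.43-fold, 1.15-fold and 1.11-fold without CD171 and CD174. The 5 immunoproteasome and PA28 genes had the widest sum, 946 CPM in CD174 against 480.1 CPM in CD177, a 1.97-fold spread that was 1.22-fold without CD171 and CD174. The class II α and β chains followed at 1.81-fold, set by 1127 CPM in CD176 against 622 CPM in CD170. By these intervals counting error was small beside the spreads, though no molecular identifiers mark out independent molecules. The intervals of the highest and lowest library were apart in 34 of the 36 genes, all but H2-Oa and H2-T24, against 96.5% of all genes. No replicate groups are labelled, so the spread between animals of one exposure is unknown here.

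Across the 36 genes, CD174 was highest for 16, against 29.9% of all genes and 27.9% of abundant genes. They were 2 class II, 7 class I and 7 loading and proteasome genes. CD174 was lowest for 5, against 37.2% of all genes and 31.2% of abundant genes. CD171 was lowest for 10, against 23.9% of all genes and 22.1% of abundant genes, counting H2-Ob, where it tied with CD174 at 0. The median log2 ratio of CD174 to the median of the other 5 libraries was 0.31 for class I, 0.34 for loading and proteasome and -0.14 for class II genes, against -0.10 over all genes. In total 25 of the 36 were above the median of the others in CD174, against 45.1% of all genes. With library totals in place of the scaling, the all-gene median in CD174 was -0.35, and the 3 medians became 0.07, 0.08 and -0.42, since a scaling moves all genes of a library together.

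Exon length was set beside these ratios. Over the 36 genes the Spearman correlation of the CD174 ratio with exon length was -0.40, and over 12604 genes it was -0.19; both are across genes, which share the libraries and are not independent. For the 36 genes the correlation was 0.32 in CD170, 0.28 in CD177, 0.14 in CD178, -0.04 in CD171 and -0.32 in CD176. For the 12604 genes it was 0.16 in CD170, 0.19 in CD177, -0.17 in CD178, 0.08 in CD171 and -0.07 in CD176. The 6 genes with more than 5000 bases of exon, Ciita, H2-Ob, Nlrc5, Mr1, Tap1 and Erap1, had a median ratio of -1.19 in CD174, and only Tap1 was above 0. The 30 shorter genes had a median of 0.34, and 24 were above 0. In CD176 the medians of these longer and shorter genes were -0.11 and -0.01. All genes past 5000 bases had a median of -0.25 in CD174 and shorter ones 0.03. The transactivators are thus the longest of the 36 genes as well as being low in CD174, and the part of length or RNA quality in that was not tested.

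**Figure D5:**
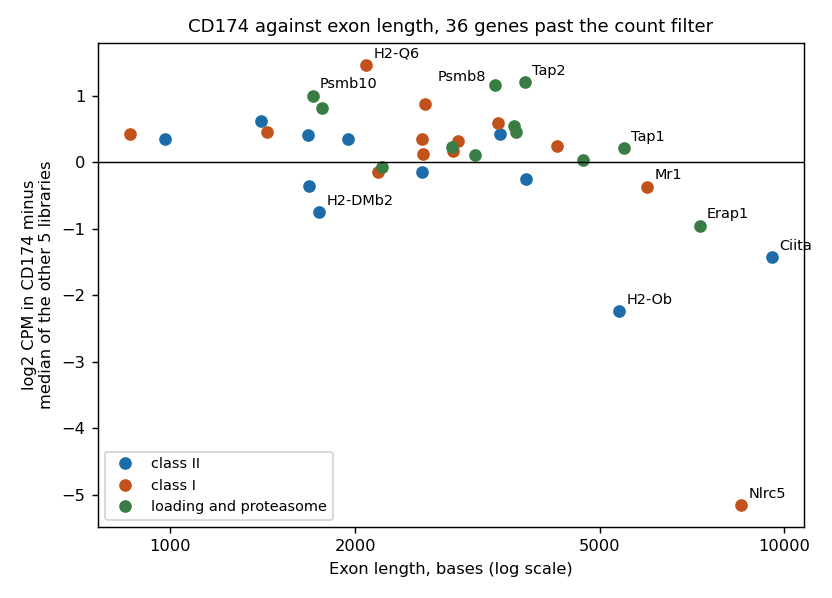
Log2 CPM in CD174 minus the median of the other 5 libraries for 36 genes against exon length in bases on a log axis, coloured by role. Ciita, Erap1, H2-Ob and Nlrc5 lie lowest at the long end; the values of Nlrc5 and H2-Ob rest on 0 counts in CD174 and a prior count of 2.

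Each transactivator was set against 6 target genes over the 6 libraries, in 12 relations with exact two-sided permutation tests and Benjamini-Hochberg adjustment over the 12. None had an adjusted p under 0.05, and 1 had an unadjusted p under it. For Ciita with Cd74, H2-Aa, H2-Ab1, H2-Eb1, H2-DMa and H2-DMb1, Pearson's r ran from -0.93 with H2-DMa to 0.57 with H2-DMb1, with exact permutation p from 0.0764 to 0.982 and adjusted p from 0.229 to 0.982. Spearman's rho ran from -0.37 to 0.71, with exact permutation p from 0.136 to 1 and adjusted p from 0.597 to 1. Without CD174 and CD176, the libraries farthest from the median of Ciita, r ran from -0.78 to 0.57, and without CD171 and CD174 from 0.19 to 0.81, each over 4 libraries. The sign of r for Cd74 was negative over 6 libraries, at -0.17, and positive, at 0.81, without CD171 and CD174.

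For Nlrc5 with B2m, H2-K1, H2-D1, Tap1, Psmb8 and Psmb9, r was negative in every case, from -0.90 to -0.25, with exact permutation p from 0.0125 to 0.621 and adjusted p from 0.15 to 0.745. Spearman's rho ran from -0.83 to -0.43, with exact permutation p from 0.0583 to 0.419 and adjusted p of 0.597. The strongest was Psmb8, at r -0.90 (exact permutation p = 0.0125, adjusted 0.15), and its r was -0.20 without CD174 and CD177, the libraries farthest from the median of Nlrc5, and -0.83 without CD171 and CD174. Over the 6 targets r ran from -0.89 to 0.15 without CD174 and CD177 and from -0.90 to 0.29 without CD171 and CD174, each over 4 libraries, so its sign depended on which libraries were kept for B2m and Psmb9. The smallest p that 6 libraries allow is 0.00139, and the value of Nlrc5 in CD174 rests on 0 counts and the prior.

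Other genes of the pathways were described from lists of related function. Of 7 regulators that bind class II promoters, 6 had a log2 range of at least 1, where 50.5% of all genes did. Without CD171 and CD174 the largest range of the 7 was 0.56, in Rfx5. Nfya and Creb1, the most abundant, lay at 36.2 to 88.9 and 53.0 to 86.4 CPM. Nfyb, a subunit of the Y box factor NF-Y, was measured at 22.5 CPM in CD170, 18.3 in CD178, 16.8 in CD176, 15.4 in CD177, 15.0 in CD171 and 3.57 in CD174. Its log2 range was 2.62, and 0.54 without CD171 and CD174. CD174 was lowest for Nfyb, and also for Nfya, Rfx5 and Creb1, while Rfxap and Rfxank were highest there. Of 7 genes of class II processing and turnover, 1, Ctsd, had a range of at least 1, and its range was 0.20 without CD171 and CD174. Ctss, the cathepsin that degrades the invariant chain, lay at 4392 to 6529 CPM and Ctsd, another lysosomal protease, at 3657 to 7314 CPM, both highest in CD174.

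Of 10 interferon pathway genes, 9 passed the count filter and 1 of those, Socs1, had a range of at least 1, at 1.81, and 0.98 without CD171 and CD174. Ifngr1, a receptor chain for interferon gamma, lay at 158 to 245 CPM and Jak1, its kinase, at 167 to 240.2 CPM. Ifng itself had no count in any library, which allows up to 0.123 CPM in CD178 and up to 0.447 CPM in CD174. Of 12 other MHC region genes, 11 were in the table, 3 passed the filter and 2 of those had a range of at least 1. Tapbpl, a tapasin-related peptide editor, lay at 20.9 to 28.9 CPM. H2-T10 was measured at 9.98 CPM in CD174, 3.93 in CD170, 3.55 in CD171, 3.20 in CD178, 2.09 in CD176 and 1.90 in CD177, and H2-Q5 at 2.54 CPM in CD177, 2.12 in CD170, 2.09 in CD176, 1.85 in CD171, 1.27 in CD178 and 0 in CD174. CD174 was highest for H2-T10 and had no H2-Q5 count, and the range of H2-Q5 was 0.93 without CD171 and CD174. Without them H2-T10 ran from 3.93 CPM in CD170 to 1.90 CPM in CD177. Of 8 constitutive proteasome and activator genes, 2, Psmb5 and Psmb6, had a range of at least 1, and the most abundant, Psma1 and Psma7, lay at 164 to 194 and 102 to 155 CPM. Of 7 measured enzymes of peptide trimming and folding, 2, Lnpep and Ero1l, had a range of at least 1, at 1.48 and 1.14, and at 0.42 and 0.50 without CD171 and CD174. Hspa5 and Pdia6 were the most abundant at 975 to 1532 and 439.6 to 541 CPM.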

How the data were processed

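RNA of lavage cells was sequenced in 6 libraries. The authors deposited raw read counts per gene, not normalized, and per the submitters' processing notes HTSeq 0.11.2, STAR 2.7.1a, bcl2fastq 2.18.0.12 and Trim Galore 0.6.2 were used, with build GRCm38. Not given in the sources used here are the annotation release and the strand setting. IDs were matched to GENCODE M21 with the version ignored, and 48435 of 48795 matched. The 5 summary rows that name no gene took 18.8 to 46.0% of counts and were left out of library sizes. Libraries held 7732244 to 23599369 gene counts.

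Libraries were scaled by TMM in edgeR 4.0.16 under R 4.3.3, and CPM and log2 CPM (prior count 2) were computed. A gene was kept if 3 or more libraries held at least 10 counts of it. Intervals are exact Poisson at 95%. Fold values against a 0 use a floor of 3 counts, which lies below the upper limit of that interval. Exon length is the union of annotated exons. Because no library has a group, no differential test was run. Correlations had exact permutation tests in scipy 1.17.1, with Python 3.11.15, numpy 2.4.6, pandas 2.3.3 and matplotlib 3.10.9. The range and permutation steps were tested on simulated data. Alternatives were DESeq2 1.42.0 size factors, library totals with and without rRNA-linked genes, no filter, a prior of 0.5, near copies summed, and leaving out libraries.

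The members and lists were chosen with earlier results of these data known. All 37 members are named, and of each other pathway list the 2 genes with the highest median CPM and any with a log2 range of at least 2. Marker lists are given as sums. Socs1, Psmb5, Psmb6, Lnpep and Ero1l are named beyond that because few genes of their lists passed a range of 1. Rfx5, Rfxap, Rfxank, Psmb7, H2-Ea-ps, Ifng and the single markers named were also chosen after their values were seen or for a ratio set with the lists. The motifs, the length limit of 5000 bases, the sum of dendritic cell markers without Sirpa, and the ratios of H2-DMb1 to H2-DMb2, H2-Q6 to H2-Q7, H2-K1 to H2-D1 and B2m to H2-D1 were chosen after values or sequences were seen.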

Additional observations from a re-analysis of the deposited data

Results flagged for a closer look

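Within the 6 libraries, a library was singled out where its gap to the nearest of the others, divided by the whole range of the gene, was above Dixon's 95% critical value. Chance does this in about 1 in 20 groups. In all 47 values (genes and sums) were examined, of which 5 were singled out, 4 of them in CD174. Not every sum given here was among the 47. The class II α and β chains, which were not, also pass the rule, at 1127 CPM in CD176, next 786 and lowest 622 CPM. So do the nonclassical class I heavy chains, at 575 CPM in CD174, next 483 and lowest 438 CPM. H2-DMa, a chain of the peptide exchange factor, stood out at 481 CPM in CD174, and the next library was at 378 CPM. H2-T22, a nonclassical heavy chain, stood out at 84.6 CPM in CD174, and the next was at 60.6 CPM. H2-Q6, another nonclassical heavy chain, stood out at 39.3 CPM in CD174, and the next was at 17.2 CPM. Erap1, the trimming aminopeptidase, stood out as low at 49.3 CPM in CD174, and the next was at 90.9 CPM. Pdia3, the chaperone ERp57, stood out at 1231 CPM in CD171, and the next was at 1052 CPM.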

How the results depend on the processing

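No paired analysis was possible because the labels put none of the libraries in a group. A log2 range of at least 1 was found for 12 in all, 5 in class II, 2 in class I and 5 in loading and proteasome. With DESeq2 size factors the class II count was 3. Rescaling after both CD171 and CD174 were left out gave 1, 1, 0 and 0. Leaving out each library in turn gave 2 to 11 in all and 2 to 4 in class II. For class I it gave 0 to 2 and for loading and proteasome 0 to 5. The lowest values were those without CD174. The class II count was also 2 of 10 without CD178 and 3 of 10 without CD170. H2-Ob no longer passed the filter in either of those runs. The library most often highest was CD174 for 16 genes. With library totals CD174 and CD176 were each highest for 10, and CD174, in place of CD171 with 10, was most often lowest, for 11. Without CD171 and CD174, CD170 was most often highest, for 14, and most often lowest, for 11. Leaving out each library in turn, the most frequent highest library had 13 to 19 genes, and was CD174 except where it was left out. The most frequent lowest library had 9 to 11. The causes of these changes were not tested. The 0 relations with an adjusted p under 0.05 stayed 0 under each alternative run; leaving out single libraries was not run for them, since fewer than 6 remain. Summing near copies gave 11 of 34 genes past that range, and no filter gave 13 of 37. Depth limits Ciita, Nlrc5, H2-Oa, H2-Ob and H2-Eb2, each with under 50 counts in at least 1 library.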

Other observations

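Co-stimulatory genes, whose products give T cells the signal that goes with antigen, were low and uneven. Cd80 lay at 12.2 to 23.8 CPM. Cd86 was measured at 19.3 CPM in CD176, 16.3 in CD177, 12.8 in CD178, 7.96 in CD170, 7.87 in CD171 and 2.68 in CD174. CD176 was highest for Cd86 and CD174 was lowest. The exact 95% Poisson interval of CD176, 17.2 to 21.7 CPM, overlapped that of CD177, 14.6 to 18.2 CPM. Cd40, the receptor for T cell help, was measured at 2.98 CPM in CD174 and at 0.309 to 0.980 CPM in the other 5. The 3 genes summed to 43.6 CPM in CD176, the highest, and to 40.6 CPM in CD177, with overlapping intervals. Their sum was lowest in CD171.

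Markers of other airspace cells were also summed. Recruited monocyte markers came to 11.8 CPM in CD171 and up to 22.3 CPM in CD174, and neutrophil markers to 43.2 CPM in CD178 and up to 59.0 CPM in CD177, with Ly6g at 0 in every library. Of 8 epithelial markers, 6 were highest in CD174 and 2, Cldn18 and Foxj1, in CD176. Sftpc, a surfactant protein of alveolar type II cells, was measured at 1602 CPM in CD174 against 41.4 to 254 CPM in the other 5.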
